A study of Arabidopsis thaliana with 5 samples.

Results

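Heat shock transcription factors (HSFs) are the proteins that switch on the heat shock genes of a plant cell. The genes examined here are 10 HSF genes of Arabidopsis thaliana: HSFA1A (AT4G17750), HSFA1B (AT5G16820), HSFA1D (AT1G32330), HSFA1E (AT3G02990), HSFA2 (AT2G26150), HSFA3 (AT5G03720), HSFA7A (AT3G51910), HSFB1 (AT4G36990), HSFB2A (AT5G62020) and HSFB2B (AT4G11660). They were chosen by locus, out of 27444 nuclear protein-coding genes in the gene table, and each was asked for R-loop peaks that overlap its annotated span by at least 1 bp. All 10 loci were found. In the gene table HSFA1A, HSFA1B and HSFB1 carry the older symbols HSF1, HSF3 and HSF4, and HSFB2B is listed as AT-HSFB2B.

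An HSF binds short inverted repeats, the heat shock elements, in the promoters of chaperone genes. Class A HSFs carry an activation domain, and among them the A1 group acts at the head of the heat response, while HSFA2, HSFA3 and HSFA7A are themselves induced by heat and prolong or strengthen it. Class B HSFs lack that activation domain, and HSFB1 and HSFB2B are known to repress HSF genes, which closes a feedback loop. An R-loop forms where an RNA pairs with one DNA strand of a gene and leaves the opposite strand single.

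R-loops were mapped by DNA:RNA immunoprecipitation (DRIP), in which the S9.6 antibody captures DNA that holds a DNA:RNA hybrid. The material was whole 12-day-old seedlings of wild-type Columbia, and every sample shares that genotype, tissue and age. The labels name no heat treatment and give no growth temperature. Of 5 samples, the 2 untreated DRIP replicates have the peak lists used here, while 1 input sample and 2 samples digested with RNase H, an enzyme that destroys RNA held in a hybrid, were not analysed here. No peak was therefore set against its own level after RNase H. The authors deposited one peak list per DRIP replicate and one list per DNA strand, named w and c, both recorded under replicate 1. The lists hold 47291 peaks (replicate 1), 39888 (replicate 2), 34493 (w) and 34069 (c), and since none of them gives the number of reads, sequencing depth is unknown.

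A peak's fold is the authors' MACS2 ratio of the signal at its summit to the local background, on a linear scale. It ranks peaks within a list, and whether the 4 lists share one scale is not known, so a fold from one list is set beside a fold from another as a description. The value given for a gene is the highest fold of the peaks that overlap it. The labels do not say whether the replicates were grown or extracted apart, and their spread may be technical. One group of 2 samples allows no test between groups, and the values below are descriptions. Whole seedlings mix many cell types, so fewer cells with an R-loop and fewer R-loops per cell cannot be told apart.

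DRIP peaks were found in both replicates at 7 of the 10 genes, HSFA1A, HSFA1B, HSFA1D, HSFA2, HSFA3, HSFB1 and HSFB2B. HSFB2A had a peak in replicate 1 only, and HSFA1E and HSFA7A had none in any of the 4 lists. Both replicates had a peak at 60.6% of all protein-coding genes, and at 67.2% of the 12959 genes of 1666 to 3508 bp, the range of lengths of these HSF genes. The count of 7 of 10 lies close to that background. Replicate 1 alone gave 8 of 10 genes against 67.3% of all protein-coding genes (74.2% in that range of lengths), and replicate 2 alone gave 7 of 10 against 62.0% (68.6%). By role, peaks in both replicates were carried by 3 of 4 A1 genes, 2 of the other 3 class A genes and 2 of 3 class B genes.

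**Figure D1:**
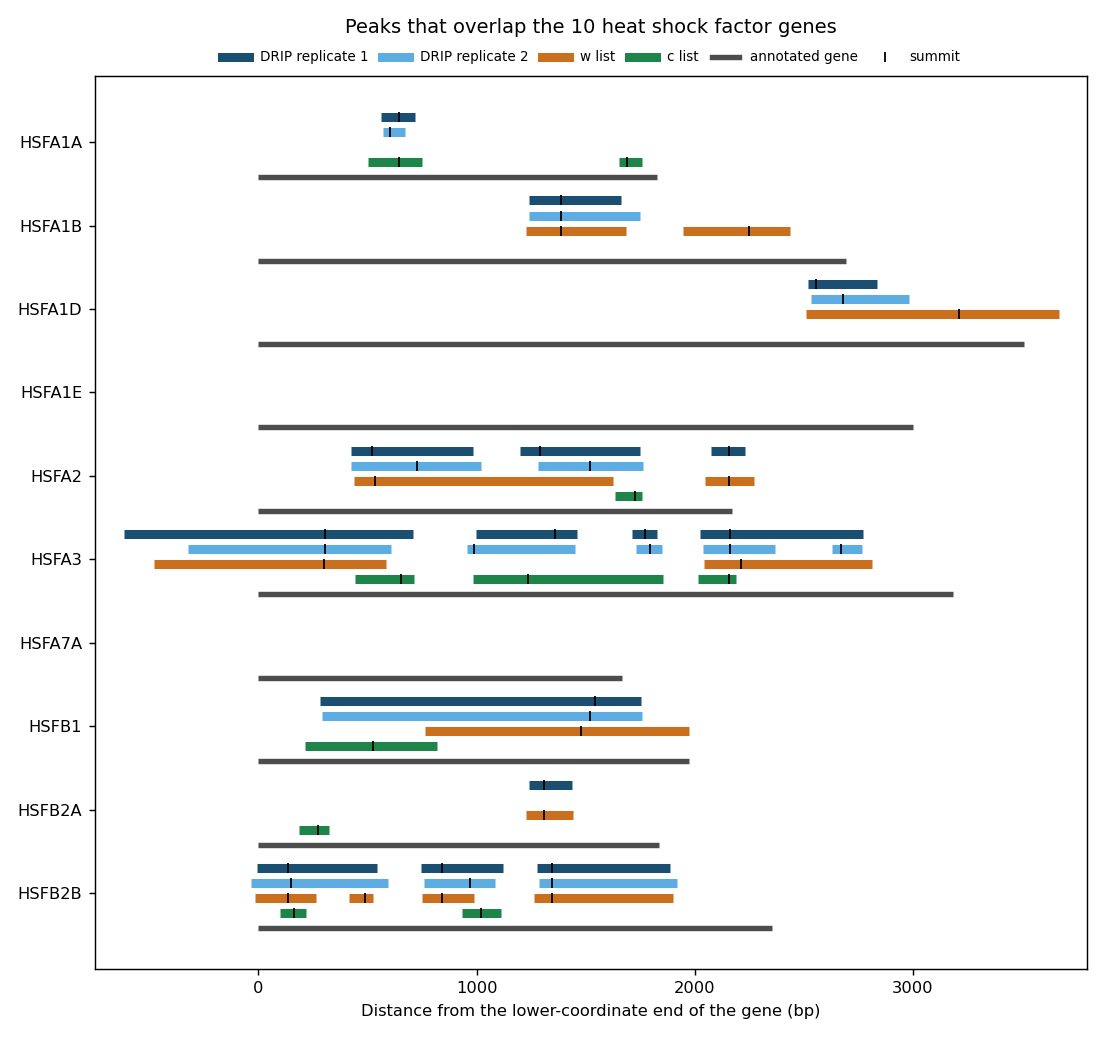
Each of the 10 genes is drawn as a grey bar from its lower-coordinate end (0 bp) to its higher-coordinate end, with the overlapping peaks of DRIP replicate 1, DRIP replicate 2, the w list and the c list as coloured bars above it and peak summits as black ticks. HSFA1E and HSFA7A are bare, HSFB1 holds 1 long DRIP peak, and HSFA2, HSFA3 and HSFB2B hold several.

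Among the genes with peaks, 2 kinds of pattern stood apart in the covered length. HSFA2, HSFA3, HSFB1 and HSFB2B had DRIP peaks over 49.7% to 74.7% of their length in each replicate, whereas HSFA1A, HSFA1B, HSFA1D and HSFB2A were covered over at most 18.8%. Summed over the 10 genes, DRIP peaks covered 29.3% ± 1.49 of the bases (SD, n = 2), against 17.0% ± 1.16 of the bases of all genes in the same range of lengths. The median per gene was 14.6% ± 1.73 (SD, n = 2) for the HSF genes and 12.1% ± 1.37 for genes in that range, so the higher sum rests on the 4 genes with broad coverage. No test was made of this difference. HSF genes outside this set were covered as broadly, with replicate means of 73.9% at HSFA8, 58.4% at HSFA9 and 51.2% at HSFC1. HSFA4A (34.2%), HSFA6B (39.3%) and HSFA7B (35.1%) lay between the 2 patterns, and the rest of the family at 13.1% or less.

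The A1 group holds the activators that start the heat response and are present before heat is applied. HSFA1B had the highest DRIP fold of the group, 4.63 in replicate 1 and 5.39 in replicate 2 (mean 5.01 ± 0.54, SD, n = 2). Its single DRIP peak lay at chromosome 5, 5531434 to 5531858, in replicate 1, and the summits of the replicates were 1 bp apart, at 51.4% of the gene length from the lower-coordinate end. The w list had a peak of fold 7.71 at the same place and a weaker one of fold 2.26 farther along the gene, and the c list had none. In the w list 95.1% of peaks had a lower fold than the first of these and 3.27% a lower fold than the second.

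HSFA1A had 1 short DRIP peak, of 155 bp and fold 3.35 in replicate 1 and of 100 bp and fold 2.19 in replicate 2 (mean 2.77 ± 0.82, SD, n = 2). The replicate values of HSFA1A lay apart, though HSFB2B had a larger SD (0.97). Of all peaks, 62.2% in replicate 1 and 9.91% in replicate 2 had a lower fold. Of the protein-coding genes with a peak, 37.7% and 3.08% had a lower value. The peak spanned chromosome 4, 9870379 to 9870533, in replicate 1. HSFA1A was the 1 gene of the 10 with a c peak and no w peak: c peaks of fold 5.92 and 2.81 lay inside it, the first over the DRIP peak and the second where neither replicate had one.

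HSFA1D, the longest of the 10 genes at 3508 bp, had 1 DRIP peak of fold 2.47 in replicate 1 and 2.29 in replicate 2 (mean 2.38 ± 0.13, SD, n = 2). These were low values, with 8.87% and 4.80% of the protein-coding genes with a peak below them. The DRIP peak began at 11659481 on chromosome 1 and measured 317 bp in replicate 1 against 448 bp in replicate 2. A w peak of fold 3.68 began close by, at 11659474, and ran for 1159 bp, past the higher-coordinate end of the gene. In the w list 98.3% of peaks were narrower, and no c peak overlapped the gene.

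HSFA1E, which at 3001 bp is shorter than HSFA1D and HSFA3 alone among the 10 genes, had no peak in any list. The nearest DRIP peak lay 2965 bp away in replicate 1 and 2936 bp away in replicate 2, the nearest w peak 1419 bp away and the nearest c peak 3030 bp away. HSFA7A, a heat-induced activator gene and the shortest of the 10 at 1666 bp, was also without peaks, but here a w peak of fold 3.09 ended 216 bp below the gene, in a stretch with no annotated gene. Its nearest DRIP peaks were 3132 bp and 3119 bp away. Genes with no peak in any list made up 20.7% of all protein-coding genes and 14.2% of those in the same range of lengths, so 2 of 10 is near the background. Peaks that MACS2 did not call at this unknown depth cannot be seen here.

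**Figure D2:**
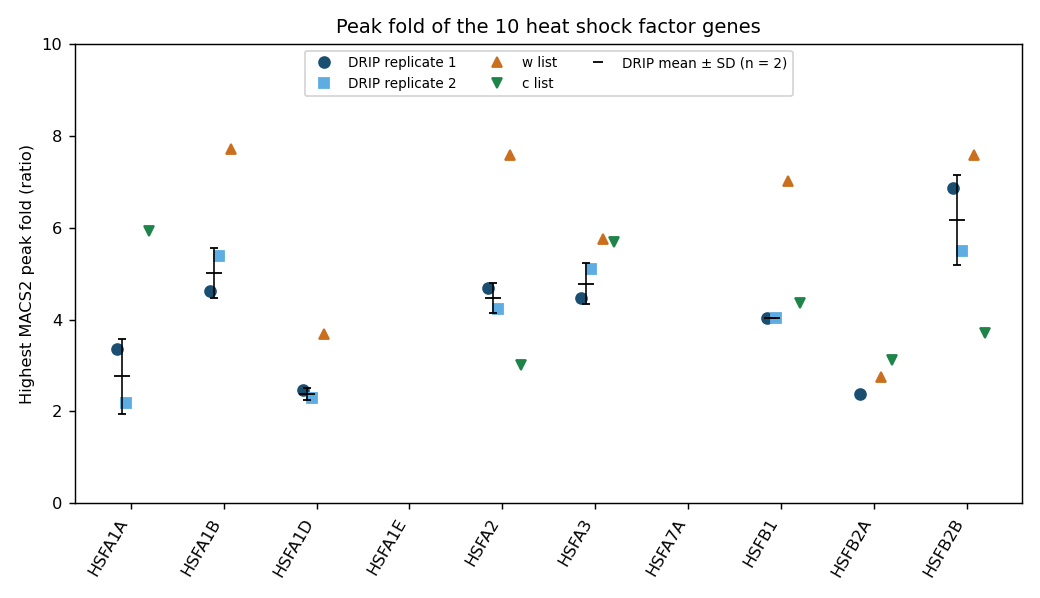
The vertical axis gives the highest peak fold (a linear ratio) of each of the 10 genes in DRIP replicate 1 (circles), DRIP replicate 2 (squares), the w list (upward triangles) and the c list (downward triangles), with the DRIP mean and SD in black where both replicates had a peak. HSFB2B had the highest DRIP mean, 6.17, and HSFA1D the lowest, 2.38.

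HSFA2 encodes the heat-induced activator that keeps heat shock genes on after repeated or long heat. Its highest DRIP fold was 4.69 in replicate 1 and 4.24 in replicate 2 (mean 4.47 ± 0.32, SD, n = 2), at a peak that began within 1 bp of the same base in the replicates (chromosome 2, 11136046 to 11136607 in replicate 1). The summits of that peak lay 205 bp apart. A second DRIP peak, of fold 2.85 and 2.84, lay farther along the gene, with summits 228 bp apart. Another, of fold 2.45, sat at the higher-coordinate end and was called in replicate 1 only. One w peak of 1189 bp and fold 7.59 ran across the first DRIP peak and most of the second. A c peak of fold 3.02 covered 124 bp just beyond its end, so that no base of HSFA2 lay in both a w and a c peak. The w peaks covered 60.5% of HSFA2 and the c peak 5.72%.

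HSFA3 encodes the activator induced through DREB2A, a drought and heat transcription factor. It had the most DRIP peaks of the set, 4 in replicate 1 and 5 in replicate 2. The highest fold was 4.47 in replicate 1 and 5.10 in replicate 2 (mean 4.78 ± 0.45, SD, n = 2), and the summits lay 2 bp apart. This peak is shared: it covers all 705 bp of AT5G03710, an annotated protein-coding gene that overlaps HSFA3 by 486 bp, it reaches the tRNA gene AT5G03705, and its summit lies where both protein-coding genes overlap. Signal from AT5G03710 and HSFA3 cannot be told apart there. Without that peak the HSFA3 value was 3.48 and 3.83 (mean 3.65 ± 0.25, SD, n = 2), at a peak that begins at chromosome 5, 973166, whose summit was at the same base in both replicates.

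Along HSFA3 both strands had several peaks. The w list covered the lower-coordinate end (fold 5.75) and a stretch near the higher-coordinate end (fold 4.20). Between them a c peak of 868 bp and fold 5.68 overlapped the second and the third DRIP peak of each replicate, where no w peak lay. Another 2 c peaks, of fold 3.79 and 2.48, each overlapped one of the w peaks. HSFA3 was the gene with the most even strand coverage, 42.4% of its length in w and 41.2% in c, and 286 bp lay in both. This evenness depends on the w peak at the lower-coordinate end, whose summit also lies in AT5G03710. That peak gave 584 bp of the 1351 bp that w covered.

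HSFB1, a class B repressor also known as TBF1 for its part in immune signalling, had 1 DRIP peak that covered 74.7% of the gene in replicate 1 and 74.3% in replicate 2, the broadest cover of the set. Its fold was 4.03 in each replicate (SD 0.0025, n = 2). The peak was 1475 bp wide in replicate 1 (chromosome 4, 17440457 to 17441931) and 1467 bp wide in replicate 2, and 99.4% of the peaks of each list were narrower. Under this single DRIP peak lay a peak of each strand. A c peak of 603 bp and fold 4.36 covered the lower-coordinate part, a w peak of 1212 bp and fold 7.01 covered the rest, and they shared 55 bp. The DRIP summits, at 78.1% and 76.9% of the gene length, fell in the w part.

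HSFB2B, a class B repressor of heat-induced HSF genes, had the highest DRIP fold of the 10 genes, 6.86 in replicate 1 and 5.49 in replicate 2 (mean 6.17 ± 0.97, SD, n = 2). Its lead rests on its highest peak: averaged over all its DRIP peaks its value was 4.99, against 5.01 for HSFA1B. In replicate 1, 99.4% of protein-coding genes with a peak had a lower value, and in replicate 2 93.3% did. The peak lay across the lower-coordinate end of the gene, at chromosome 4, 7042347 to 7042898 in replicate 1, with summits 15 bp apart. Another 2 DRIP peaks followed, with folds of 3.67 and 4.71 in replicate 1 and 4.30 and 4.94 in replicate 2. The last of them overlaps AT4G05910, a long noncoding RNA gene of 352 bp that lies wholly inside HSFB2B, but its summit, 1 bp apart in the replicates, is outside it. The w list had 4 peaks on HSFB2B, the highest of fold 7.58, and the c list 2 short ones of fold 3.55 and 3.70.

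HSFB2A, of the same class B subgroup as HSFB2B, had fewer and weaker peaks. A DRIP peak of 200 bp and fold 2.38 was called in replicate 1 (chromosome 5, 24917045 to 24917244) and none in replicate 2, where the nearest peak lay 625 bp outside the gene. The w list had a peak of fold 2.76 with its summit at the same base as that of replicate 1, under which the w list is recorded. A c peak of fold 3.11 lay in another part of the gene, where no DRIP replicate had a peak. Genes with a DRIP peak in 1 replicate only made up 8.21% of all protein-coding genes.

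Ordered by mean DRIP fold, the 7 genes with a peak in both replicates ran HSFB2B, HSFA1B, HSFA3, HSFA2, HSFB1, HSFA1A and HSFA1D. The replicate values of neighbours overlapped for HSFA1B and HSFA3, for HSFA3 and HSFA2, and for HSFA1A and HSFA1D, so these neighbours did not differ beyond their spread. They did not overlap between HSFB2B and HSFA1B, between HSFA2 and HSFB1, or between HSFB1 and HSFA1A. With the mean fold of a gene's peaks in place of the highest, the order turned for HSFB2B (4.99) and HSFA1B (5.01) and for HSFA2 (3.44) and HSFB1 (4.03). HSFA3 (3.14) fell below both HSFB1 and HSFA2. Without its shared peak HSFA3 would stand below HSFB1.

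**Figure D3:**
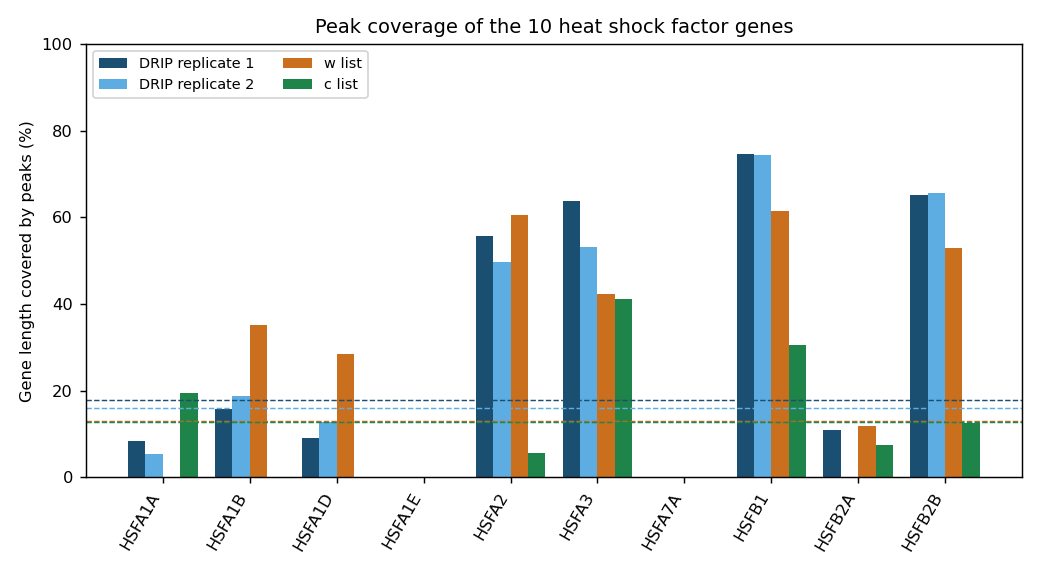
Bars give the percent of each gene's length covered by peaks of DRIP replicate 1, DRIP replicate 2, the w list and the c list, and dashed lines in the same colours give the percent of bases covered over all protein-coding genes of 1666 to 3508 bp. HSFA2, HSFA3, HSFB1 and HSFB2B lie well above the DRIP lines of 17.8% and 16.1%, and the other 6 genes lie near or below them.

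In the strand lists, 7 of the 10 genes carried a w peak against 54.9% of all protein-coding genes and 61.0% of those in the same range of lengths, and 6 carried a c peak against 54.8% and 60.2%. HSFB2A, HSFB1, HSFB2B, HSFA2 and HSFA3 carried both, 5 of 10 against 30.7% of all genes and 35.6% of genes in the same range of lengths. HSFA1B and HSFA1D carried w alone, 2 of 10 against 24.2% and 25.4%. HSFA1A carried c alone, 1 of 10 against 24.1% and 24.6%. All 3 class B genes of this set had peaks of both strands, and none of the 4 A1 genes did. The pattern did not extend to the class B genes outside the set, as HSFB3 carried w alone and HSFB4 c alone.

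Although nearly as many genes carried c as w, the w peaks were broader. The w peaks covered 30.1% of the summed bases of the 10 genes and the c peaks 11.7%, while over genes in the same range of lengths the shares were 13.1% and 12.8%. The median w peak on these genes was 491 bp wide and the median c peak 175 bp, against 249 bp and 252 bp over all peaks of each list. Of the 15 replicate 1 peaks on the HSF genes, 6 overlapped w alone, 3 overlapped c alone, 6 overlapped both and 0 overlapped neither. Over all replicate 1 peaks the shares were 44.9% for w alone, 44.3% for c alone, 9.78% for both and 1.03% for neither. In replicate 2 the corresponding counts were 5, 3, 6 and 0 of 14 peaks, against 44.2%, 43.6%, 10.9% and 1.32% of all peaks. In each replicate the 6 peaks that overlapped both lay on HSFA2, HSFA3, HSFB1 and HSFB2B, so some of them share a gene. The shares over all peaks are not limited to peaks on genes of like length. The DRIP peaks on the HSF genes had a median width of 462 bp (replicate 1) and 486 bp (replicate 2), against 240 bp and 270 bp over all peaks, and the part of width in these counts was not tested. Each strand list is a single list with no replicate, so these values have no replicate error.

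The position of the strand peaks differed too. In the lower-coordinate 50% of the genes w covered 18.1% of the bases and in the higher-coordinate 50% it covered 42.1%. For c the order was the opposite, 17.9% and 5.48%. Over genes in the same range of lengths the shares were 10.2% and 15.9% for w and 15.7% and 9.95% for c, the same order with a smaller gap. HSFB1 showed it most plainly, with w over 22.8% of the lower and 99.9% of the higher 50%, and c over 61.1% and 0%. HSFA2 and HSFB2B had w spread almost evenly, at 59.6% and 61.5% and at 51.8% and 54.0%. For c HSFA2 went against the summed order, with 0% of the lower and 11.4% of the higher 50%. Of the 2161 bp of c in the lower 50%, HSFA3 gave 877 bp and HSFB1 603 bp. DRIP peaks of the 10 genes covered the lower and higher 50% alike, 30.0% and 30.7% in replicate 1 and 29.0% and 27.4% in replicate 2. Transcribed strands are not in the gene table used, and these ends are named by coordinate and are not starts and ends of transcription.

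The replicates placed their peaks on these genes much alike. Each of the 14 peaks of replicate 2 overlapped a replicate 1 peak, but the share over the whole replicate 2 list was not computed. On HSFA3 the last 2 replicate 2 peaks met the same replicate 1 peak. The summit of the last one lay 511 bp from that of the replicate 1 peak. Of the 15 peaks of replicate 1, 13 had a counterpart in replicate 2, against 79.5% over the whole replicate 1 list. The exceptions were the end peak of HSFA2 and the peak of HSFB2A. The summits of these 13 lay from 0 to 374 bp from the nearest replicate 2 summit, with a median of 25 bp, and 8 of 13 (61.5%) lay within 50 bp. Over all such peaks the median was 21 bp and 72.9% lay within 50 bp. Every summit of a peak that overlapped one of the 10 genes lay inside that gene, in all 4 lists, and the smallest overlap between a gene and a peak was 94 bp, at the end peak of HSFA2.

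Peaks within 1 kb outside the genes lay mostly in neighbouring genes. At HSFA2 a DRIP peak of fold 3.28 in replicate 1 and 2.82 in replicate 2 ended 242 bp and 234 bp below the gene, in ftsh4, a mitochondrial protease gene, and there it was matched by a c peak of fold 6.96 and no w peak. At HSFA1A a DRIP peak of fold 3.75 in replicate 1 and 3.57 in replicate 2 began 161 bp and 165 bp above the gene, in AT4G17760, and was matched by a w peak of fold 6.63. In both cases the flanking peak was on the strand opposite to the one with most cover inside the gene. At HSFA1D, HSFB1 and HSFB2A a flanking w peak was on the strand with most cover. These w peaks lay below HSFA1D (fold 6.06, in MKK10), above HSFB1 (fold 3.35, in ACD2) and below HSFB2A (fold 2.27, in ARF2). HSFB1 and HSFB2A also had a c peak, on their strand with less cover, at the far edge of the 1 kb above them. The fold of that c peak was 4.22 and 5.78. HSFA3 had a c peak of fold 3.21, 505 bp below it, in a stretch with no annotated gene. Cover inside HSFA3 was nearly even, 42.4% in w and 41.2% in c, with the w peak shared with AT5G03710 counted. HSFB2B had a weak flanking peak in a stretch with no annotated gene, 369 bp below it in replicate 1 (fold 2.15) and 400 bp below it in replicate 2 (fold 2.19), with a w peak of fold 3.06 and no c peak.

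The other 11 HSF genes of the family were set beside these 10. DRIP peaks in both replicates were found at 8 of 11, against 60.6% of all protein-coding genes. A w peak was found at 8 against 54.9%, and a c peak at 9 against 54.8%, shares not matched for length. Peaks in all 4 lists were found at 6 of 11. Of the 10 genes described above 4 had them (HSFA2, HSFA3, HSFB1 and HSFB2B), against 28.1% of all protein-coding genes and 32.7% in the same range of lengths. Ranked by the smaller of their replicate folds, the first 4 were, with mean folds in parentheses, HSFA8 (5.60 ± 0.38, SD, n = 2), HSFA9 (5.14 ± 0.14), HSFC1 (4.53 ± 0.46) and HSFA6B (4.09 ± 0.088). HSFA9 acts in seed development, and its highest peak in each replicate also overlaps the snoRNA gene U3D and the gene HGO. HSFC1 overlaps a long noncoding RNA gene, AT3G24518, and so does its highest peak in each replicate. HSFA4C was without DRIP peaks and had 2 w peaks, the highest of fold 3.60. By its highest peak, HSFB2B with 6.17 had the highest mean DRIP fold of all 21 HSF genes, and its replicate values of 6.86 and 5.49 overlapped those of HSFA8, 5.87 and 5.33.

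Genes of one subgroup did not always share a level. In the A1 group the replicate folds of HSFA1A (2.19 to 3.35) and HSFA1D (2.29 to 2.47) overlapped. Their covered lengths did not, at 8.47% and 5.47% for HSFA1A and 9.04% and 12.8% for HSFA1D. The pairs below are set apart by whether a DRIP peak was called or by covered length. HSFA7B and HSFA4A, used here as the partners of HSFA7A and HSFA4C, were singled out with their values known. HSFA7A had no peak, while HSFA7B had DRIP folds of 4.23 and 3.29 (mean 3.76 ± 0.66, SD, n = 2). HSFB2A had 10.9% of its length covered in replicate 1 and 0% in replicate 2, and HSFB2B 65.2% and 65.6%. Within the A1 group coverage ran from 0% at HSFA1E to 17.3% ± 2.13 at HSFA1B (SD, n = 2). HSFA4A, with folds of 3.44 and 4.08, stood beside HSFA4C with none.

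**Figure D4:**
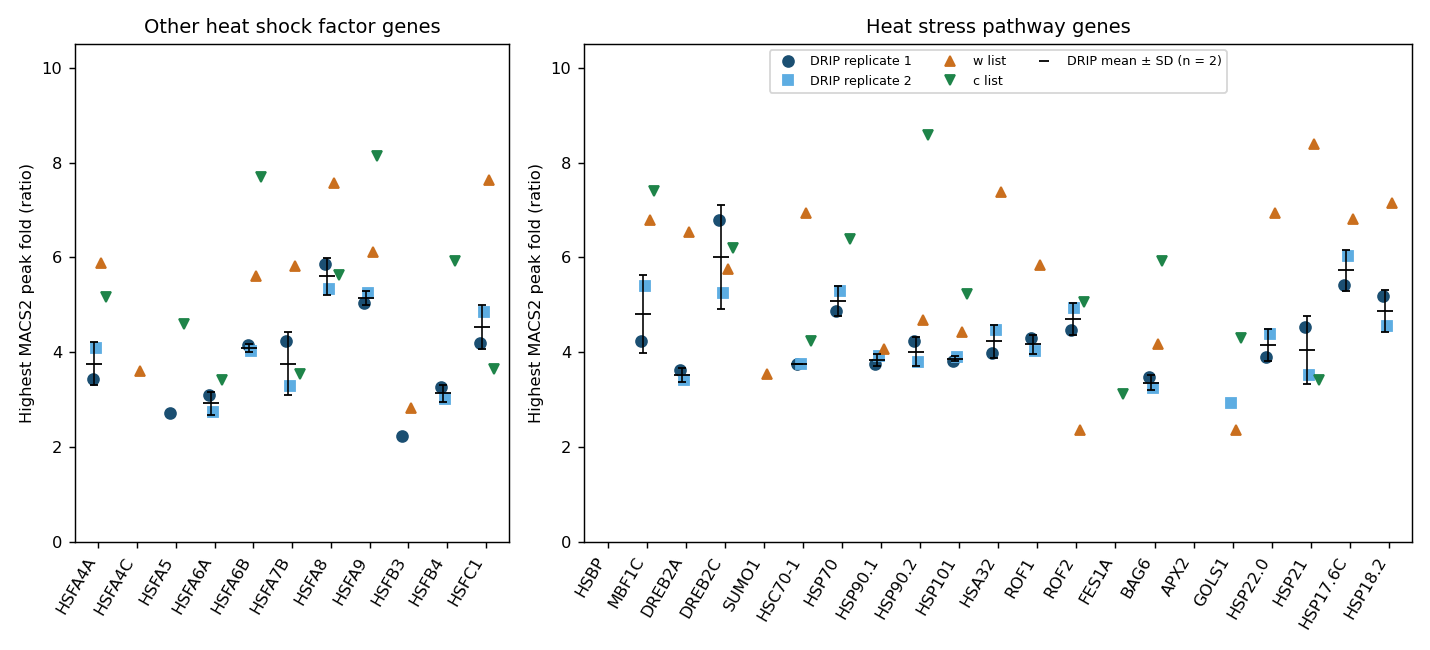
The left panel gives the highest peak fold (a linear ratio) of the other 11 HSF genes and the right panel that of 21 heat stress pathway genes, with DRIP replicate 1 as circles, DRIP replicate 2 as squares, w as upward triangles, c as downward triangles, and the DRIP mean and SD in black where both replicates had a peak. A gene with no symbol had no peak, as HSBP and APX2.

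Of 21 genes that act around the HSFs as regulators, chaperones or targets, 16 had a DRIP peak in both replicates against 60.6% of all protein-coding genes. A w peak was found at 17 against 54.9%, and a c peak at 11 against 54.8%. These shares are not matched to the lengths of the 21 genes. Ranked in the same way by the smaller fold, the first 4 were HSP17.6C (AT1G53540; smaller fold 5.42, mean 5.73 ± 0.43, SD, n = 2), which encodes a small heat shock protein, DREB2C (smaller fold 5.24, mean 6.01 ± 1.09), a transcription factor gene, HSP70 (mean 5.08 ± 0.31), a chaperone gene, and HSP18.2 (mean 4.87 ± 0.44), another small heat shock protein gene. FES1A, a gene for an HSP70 cofactor, had no DRIP peak and a c peak of fold 3.11, and APX2, an ascorbate peroxidase gene under HSF control, had no peak in any list. HSP17.6C was covered over its whole length in both replicates, by a peak that also reached AT1G53541 and AT1G07897. At 901 bp this gene is shorter than any of the 10 HSF genes. The next genes, DREB2A and HSBP, were singled out with their values already known. DREB2A, the regulator upstream of HSFA3, had highest DRIP folds of 3.62 and 3.42, 2 w peaks, the higher of fold 6.53, and no c peak. HSBP, whose protein binds HSFs and damps them, had no peak in any list.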

How the data were processed

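DRIP libraries of 12-day-old seedlings were made by the submitters from DNA cut with 6 restriction enzymes before precipitation and sonicated after it. A captured fragment runs to its cut sites, so a peak can be wider than the hybrid in it. CASAVA, BWA 0.7.12, MACS2 and the TAIR10 build are named in the submitters' processing notes. Their settings, the control library and any pooling are not given in the sources used. The deposited fold is a linear ratio. MACS2 also gave the authors' deposited −log10 p-value and q-value. The lowest −log10 q-value in the 4 lists was 1.30132 to 1.34408, so all peaks passed a q-value of 0.05. Peak coordinates are printed counted from 1.

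Genes came from a RefSeq table of TAIR10.1, joined to peaks by position with pandas 2.3.3 and numpy 2.4.6 in Python 3.11.15. With peaks moved by up to 1000 bp either way, 50 bp at a time, protein-coding genes held most peak bases at a shift of 0 bp on each of 5 chromosomes in both replicates. The join was tested on simulated data. Named are all 10 HSF genes, genes that share their peaks and, from the family and pathway lists, at most 4 genes each by their smaller fold of both replicates and at most 2 (lowest locus number) without a DRIP peak. DREB2A, HSBP, HSFA7B and HSFA4A were added outside this rule. The genes and lists were chosen with earlier results of these data known. The table used holds no transcribed strand, exons or sequence, so the planned use of gene strand, promoters and proteins was not made.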

Additional observations from a re-analysis of the deposited data

How the results depend on the processing

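The count of 7 HSF genes with a DRIP peak in both replicates was 7 to 8 with 1 replicate left out, 7 with at least 50 bp overlapped, with the summit required inside the gene or without bases that other annotated genes hold, 8 with a peak in either replicate or with 1 kb added on either side, 6 with a −log10 q of at least 3 (HSFA1A lost) and 5 with the upper 50% of peaks by fold (HSFA1A and HSFA1D lost). The c count fell from 6 to 3 with the upper 50% of peaks by fold (HSFA1A, HSFA3 and HSFB1 kept), where fewer peaks are counted, and was 6 under the other settings. The w count of 7 was 5 with the upper 50% of peaks and 9 with 1 kb added. The covered share of 29.3% was 28.2% to 30.3% with 1 replicate left out, 29.1% with a −log10 q of at least 3 and 22% with the upper 50% of peaks. With the mean in place of the highest fold of a gene's peaks, HSFA2 stood at 3.44, HSFA3 at 3.14 and HSFB2B at 4.99. The 4 genes with 1 DRIP peak each kept their value. HSFA1B (5.01) thus moved above HSFB2B, HSFB1 (4.03) above HSFA2 and HSFA3, and HSFA2 above HSFA3. HSFA3 moved to 3.65 without the peak whose summit lies in AT5G03710. The settings without bases or summits of other genes were chosen after seeing the data. No paired analysis was possible because the RNase H samples that share replicate numbers with the DRIP samples were not analysed here. Peak lists give no depth, so a gene without a peak had none called, not none present.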
